A study of Mus musculus with 9 samples.

Results

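Interferon-stimulated genes are the genes a cell switches on when it senses an interferon, and 40 of them were examined here among the 54532 genes of an RNA sequencing table of mouse skin. They were chosen by gene symbol, and all 40 symbols were found. The study asked whether nitrate applied to the skin eases fibrosis in a mouse model of systemic sclerosis. The table holds 9 skin biopsy libraries, each labelled as wild type (WT), in 3 groups of 3. The first group was healthy control skin, called control 1, 2 and 3 below. The second was skin of mice given bleomycin, a DNA-breaking antibiotic used to produce skin fibrosis in mice. The third was skin of mice given bleomycin together with topical nitrate, a source of nitric oxide through reduction to nitrite, and its libraries are called nitrate 1, 2 and 3. The sources used here do not give doses, times, strain, sex or age. They do not give the number of animals or any pooling either, so a p-value covers the spread among libraries only, which may be technical.

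Type I interferons are secreted when cells detect foreign or misplaced nucleic acid. They bind a receptor whose Jak1 and Tyk2 kinases phosphorylate Stat2, among other proteins, and Stat2 joins Irf9 in a complex that binds an interferon-stimulated response element (ISRE) in target promoters. Interferon gamma, made by T and NK cells, signals through a separate receptor, and its target promoters carry gamma-activated sites (GAS). The products of the target genes block viral replication, sense nucleic acid, destroy vacuoles that hold microbes, draw T cells and trim antigens. In skin, keratinocytes, fibroblasts, endothelial cells and leukocytes can all express them, and a raised interferon signature is well known in the blood and skin of patients with systemic sclerosis.

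Levels are given in FPKM, fragments scaled to transcript length and to library size, which allow levels of different genes to be compared per length. Recovered reads per library ran from 15804050 to 18352592. Reads from mitochondrial genes took 6.61 to 8.02% of each control library, 3.77 to 4.17% of each bleomycin library and 2.84 to 4.49% of each nitrate library. The skin label was checked against its defining markers. Krt5 of basal keratinocytes lay between 396 and 1422 FPKM over the 9 libraries, and Col1a1 of fibroblasts between 2451 and 3048 FPKM in control and between 740.5 and 1214 FPKM in the other 6. Libraries of one group differed widely in genes of the growing hair follicle, whose summed level over 16 genes ran from 3.39 FPKM in control 1 to 14361 FPKM in nitrate 3. Differences between groups below are differences of log2(FPKM + 1) with their standard error from limma, and they understate the change of genes with low levels. A gene was called changed where its adjusted p (Benjamini-Hochberg, over all 14645 genes tested) was under 0.05.

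Promoter sequence shows what many of the members share. RefSeq windows (GRCm38.p6) of 250 bases before to 50 after the start were matched for 30 of the 40 members, and the windows were searched on both strands for the letters GAAANNGAAA of the ISRE. Of these 30 members, 19 (63.3%) held at least 1 match, against 3.99% of 27025 genes with a window. The GAS letters TTCNNNGAA were held by 6 of 30 (20%), against 9.55% of those genes. The 5 windows below are printed because they belong to a well-expressed member of each of 5 functional classes and their matches lie close before the start. They run over the 160 bases before the start, 5′ to 3′ on the gene's own strand, with every base of an ISRE match in capitals. Overlapping matches run together, and a match on the opposite strand reads TTTCNNTTTC.
Isg15, chr4:156200819-156200978, minus strand: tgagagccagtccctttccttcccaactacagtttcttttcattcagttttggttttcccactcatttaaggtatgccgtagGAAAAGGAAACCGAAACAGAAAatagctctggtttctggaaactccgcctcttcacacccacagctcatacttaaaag
Ifit3, chr19:34583369-34583528, plus strand: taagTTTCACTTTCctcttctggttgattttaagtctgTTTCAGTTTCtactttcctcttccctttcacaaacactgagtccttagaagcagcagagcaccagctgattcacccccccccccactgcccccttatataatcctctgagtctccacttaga
Oas1a, chr5:120907526-120907685, minus strand: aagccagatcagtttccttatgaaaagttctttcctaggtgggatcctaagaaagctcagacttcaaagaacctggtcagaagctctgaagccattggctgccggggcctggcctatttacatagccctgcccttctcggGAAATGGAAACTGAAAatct
Bst2, chr8:71537473-71537632, minus strand: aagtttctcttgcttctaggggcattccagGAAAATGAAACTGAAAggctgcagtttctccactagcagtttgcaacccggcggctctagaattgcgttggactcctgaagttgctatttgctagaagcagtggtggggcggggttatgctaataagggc
Igtp, chr11:58199396-58199555, plus strand: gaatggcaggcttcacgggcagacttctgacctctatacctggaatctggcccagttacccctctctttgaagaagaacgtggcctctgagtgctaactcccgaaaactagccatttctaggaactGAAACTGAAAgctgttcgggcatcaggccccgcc
Isg15 held 3 overlapping matches whose first bases lay 78, 72 and 66 bases before the start. Ifit3 held 2 separate matches, at 156 and 122 bases, both on the opposite strand. Oas1a and Bst2 each held an overlapping pair, at 20 and 14 bases in Oas1a and at 130 and 124 bases in Bst2, and Igtp held 1 match at 34 bases. A match describes the letters only, and binding was not measured.

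Across the 9 libraries the 40 members moved together, and the order of the libraries cut across the group labels. The median member stood at 11.4, 4.91 and 4.76 FPKM in control 1, 2 and 3. It stood at 11.1, 9.07 and 10.9 FPKM in bleomycin 1, 2 and 3, and at 8.55, 3.64 and 2.15 FPKM in nitrate 1, 2 and 3. The 3 bleomycin libraries were thus alike and high, while control 1 and nitrate 1 stood far above the other libraries of their own groups. Control 1 was the highest control for 40 of 40 members, against 31.5% of all tested genes, and nitrate 1 was the highest nitrate library for 40 of 40, against 29.3%. Nitrate 3 was the lowest of all 9 libraries for 33 of 40 members, against 21.3% of all tested genes.

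**Figure D1:**
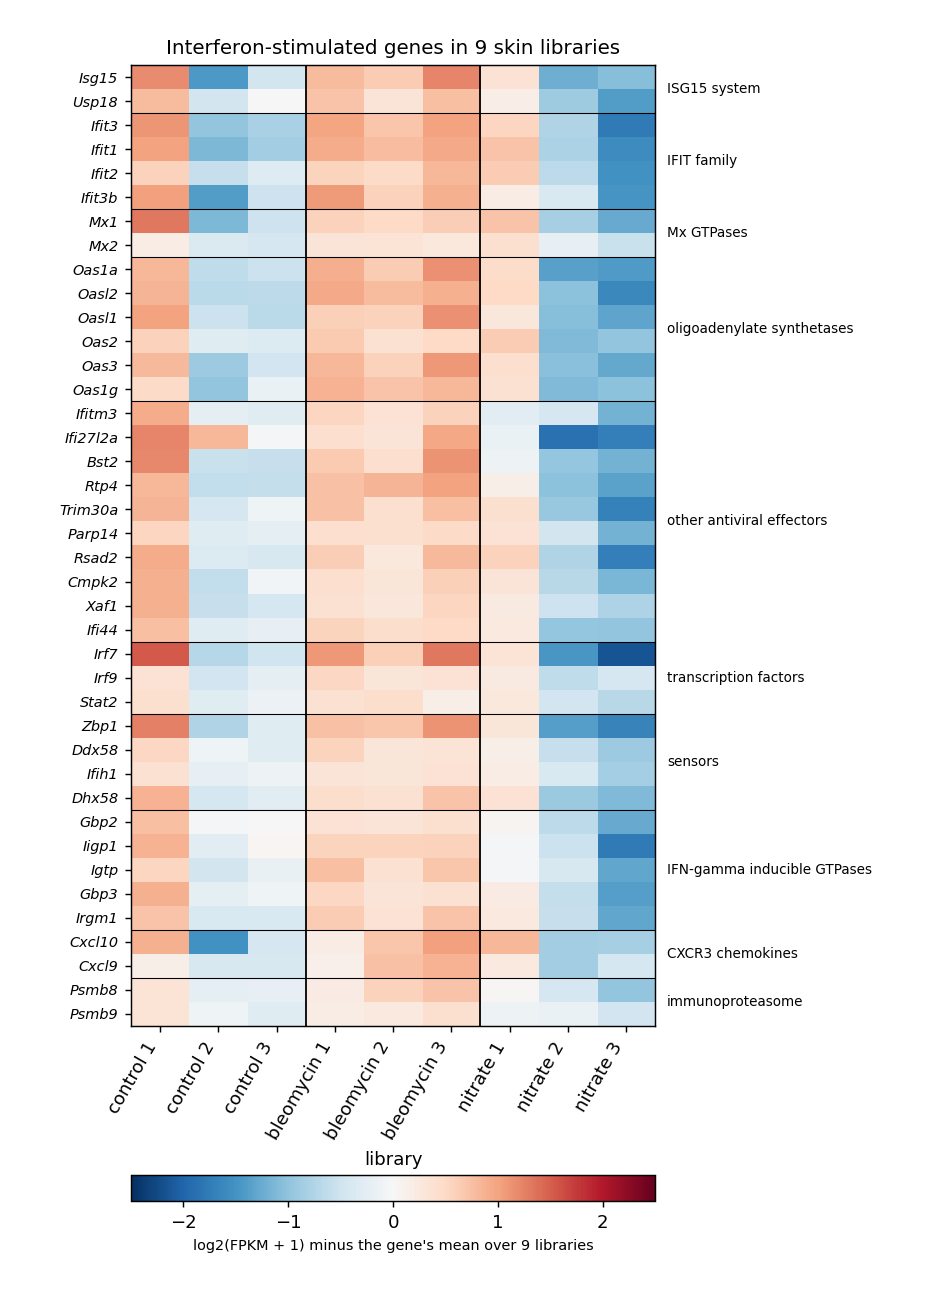
Heat map of log2(FPKM + 1) minus each gene's mean over the 9 libraries, with 1 row per member grouped by role and 1 column per library. Control 1 and the 3 bleomycin libraries are red for nearly all members, nitrate 1 is pale, and control 2, control 3, nitrate 2 and nitrate 3 are mostly blue, although Ifi27l2a is red in control 2.

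Set against the bleomycin libraries one at a time, control 2 was below all 3 of them for 39 of 40 members and control 3 for 40 of 40, against 35.2% and 32.4% of all tested genes. Control 1 was above all 3 for 21 members, against 29.5% of all tested genes, within their range for 17 and below for 2. Its median ratio to the bleomycin mean was 1.14, against 0.404 for control 2 and 0.469 for control 3. Nitrate 2 and nitrate 3 were below all 3 bleomycin libraries for 40 of 40 members, against 30.5% and 34.4% of all tested genes, with median ratios of 0.299 and 0.199. Nitrate 1 was below all 3 for 31 members, against 31.1% of all tested genes, within their range for 7 and above for 2, with a median ratio of 0.773.

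The spread within a group was large for these genes in 2 of the 3 groups. The median SD of log2(FPKM + 1) over 3 libraries was 0.68 in control and 0.80 in nitrate for the members, against 0.17 and 0.23 for all tested genes. In bleomycin it was 0.17 for the members and 0.18 for all tested genes. Bleomycin had the smallest SD of the 3 groups for 39 of 40 members, against 33.8% of all tested genes. Within groups the members moved together. Over 9 libraries, deviations from the group means correlated positively in 780 of 780 pairs of members, with a median Pearson r of 0.91, given as a description since the points share libraries and depth. Each member's deviations correlated with the mean of the others at 0.71 (Cxcl9) to 0.99 (Irf7). The 40 members are therefore not 40 separate observations of a group difference.

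**Figure D2:**
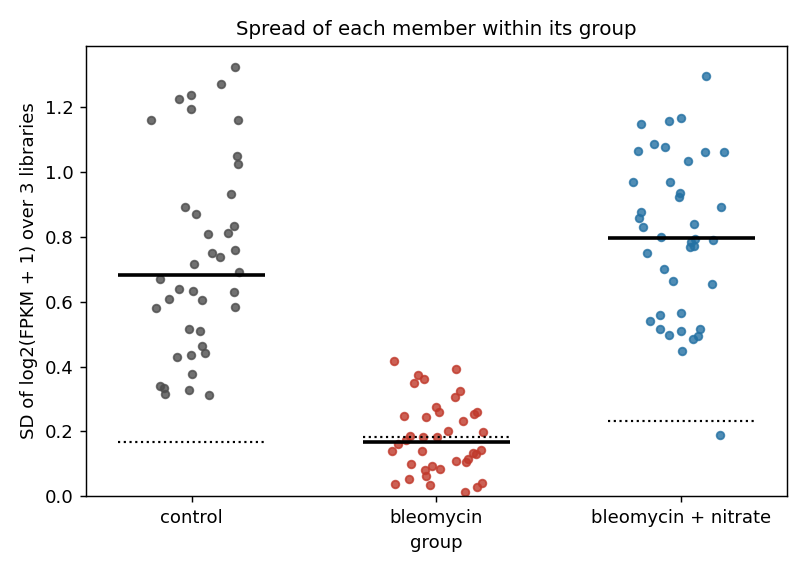
SD of log2(FPKM + 1) over the 3 libraries of each group, 1 point per member, with the median of the members as a solid line and the median of all 14645 tested genes as a dotted line. The members' median lies near that of all genes in bleomycin (0.17 against 0.18) and well above it in control (0.68 against 0.17) and in nitrate (0.80 against 0.23).

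Bleomycin against control asked what the fibrosis model did to these genes. The estimate was above 0 for 39 of 40 members, against 51.6% of all tested genes, with a median difference of 0.54 against 0.01 for all genes. None of the 40 passed the test, while 8.43% of all tested genes did. At an unadjusted p under 0.05 there was 1 member, Cxcl9, against 14% of all tested genes in the same direction, and its adjusted p of 0.146 was the smallest. Every bleomycin library was above every control library for 2 members, Mx2 and Oas1g, against 18.4% of all tested genes, since control 1 reached into or past the bleomycin range for the other members. Without control 1 the median difference was 0.92 and no member passed, where 4.29% of all tested genes passed. No member passed with voom on the recovered reads either, which called 8.48% of all tested genes. The share of mitochondrial reads, which was higher in each control library than in each bleomycin or nitrate library, moved with this comparison, and its part was not tested.

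Adding nitrate to bleomycin went with lower levels. The estimate was below 0 for 40 of 40 members, against 50.4% of all tested genes, with a median difference of -1.12 against -0.0029 for all genes. Every nitrate library was below every bleomycin library for 31 of 40 members, against 11.8% of all tested genes. None of the 40 passed the test, nor did any other gene, a background of 0%. At an unadjusted p under 0.05 there were 31 members, against 10.4% of all tested genes in the same direction, and their adjusted p-values began at 0.136. Voom called no member and 0% of all tested genes. In bulk skin, fewer cells of a type and less RNA per cell cannot be told apart.

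Nitrate-treated skin against healthy control skin asked where the genes stood after both agents. The estimate was below 0 for 38 of 40 members, against 48.1% of all tested genes, with a median difference of -0.50 against 0.02 for all genes. Of the 40, 1 passed the test, Ifi27l2a, which fell, while 8.53% of all tested genes passed. It was also the only member with every nitrate library below every control library, a pattern held by 17.5% of all tested genes. At an unadjusted p under 0.05 there were 3 members, Ifi27l2a, Gbp2 and Iigp1, against 16% of all tested genes in the same direction. Voom called the same single member and 11.1% of all tested genes. Without control 1 the median difference was -0.16, and without nitrate 1 it was -0.97. This comparison shares its libraries with the other two, so the 3 sets of differences are not independent.

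**Figure D3:**
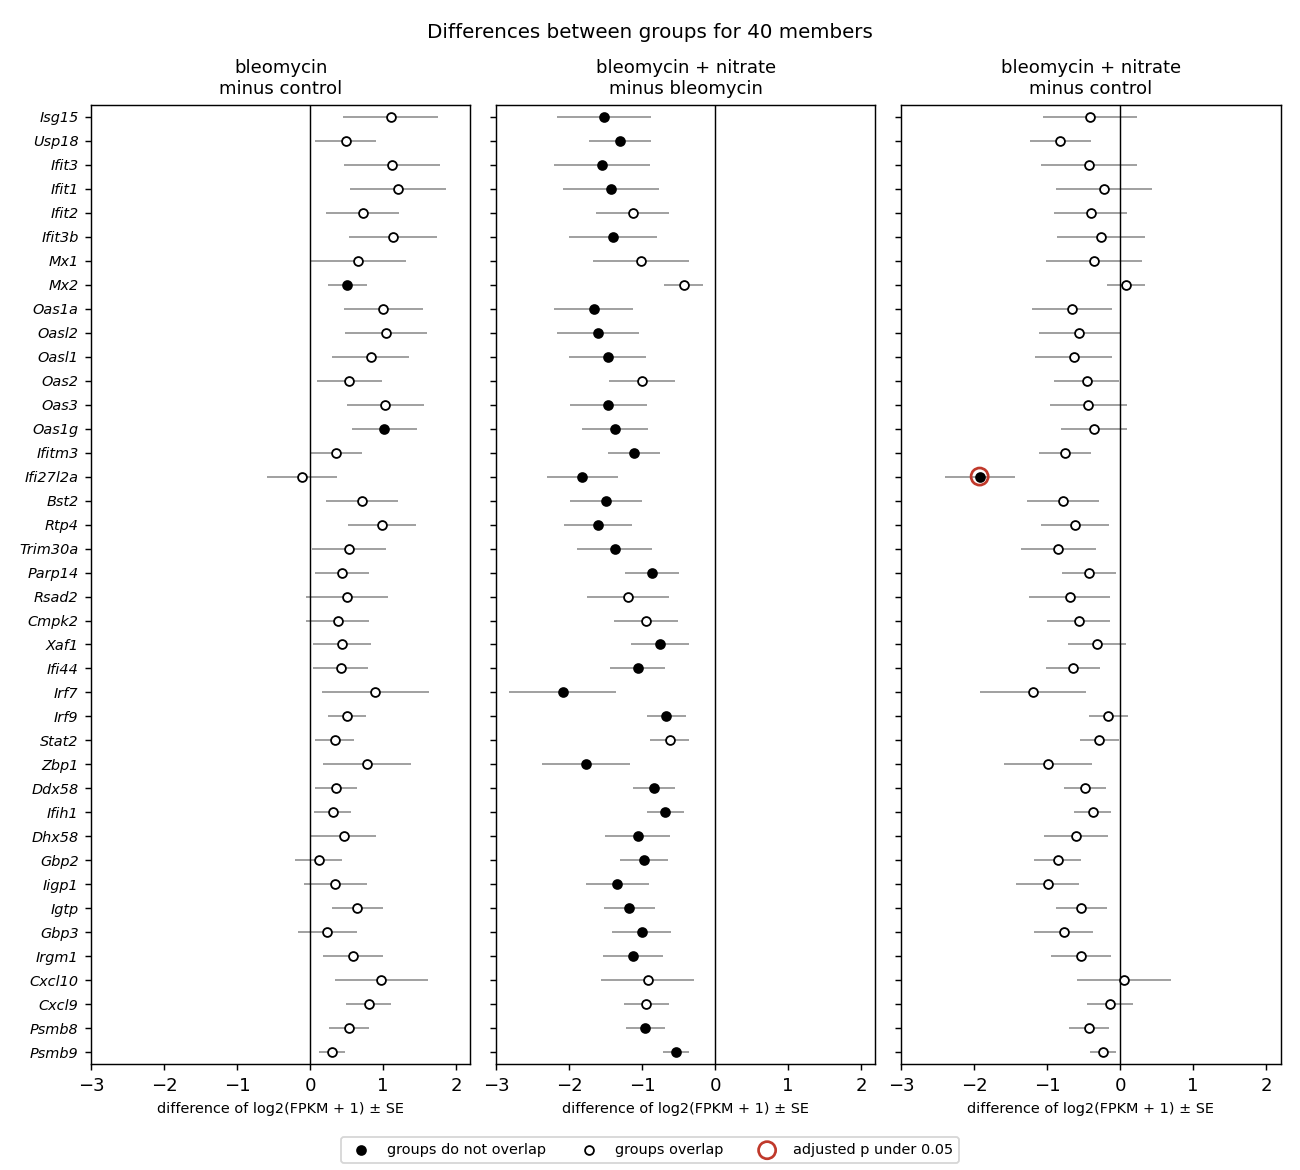
Difference of log2(FPKM + 1) with its standard error for each member in the 3 comparisons, filled where the 3 libraries of one group all lie beyond those of the other, and ringed in red at an adjusted p under 0.05. Nearly all points lie right of 0 for bleomycin against control (39 of 40) and all lie left of 0 for nitrate against bleomycin (40 of 40), and the sole ring is Ifi27l2a in nitrate against control.

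The ISG15 system tags proteins with a ubiquitin-like modifier. Isg15, the modifier itself, was measured at 51, 7.47 and 15.7 FPKM in control 1, 2 and 3, 38.2, 34.2 and 52 FPKM in bleomycin 1, 2 and 3, and 28.3, 8.74 and 9.87 FPKM in nitrate 1, 2 and 3. Its high libraries were control 1 and the 3 bleomycin libraries, and the nitrate libraries lay below all of bleomycin. The differences were 1.10 ± 0.65 (adjusted p = 0.310) for bleomycin against control and -1.52 ± 0.65 (adjusted p = 0.267) for nitrate against bleomycin. Usp18, the protease that removes the tag and restrains the type I receptor, stood at 8.98, 3.18 and 4.82 FPKM in control 1, 2 and 3, 8.51, 6.27 and 8.68 FPKM in bleomycin 1, 2 and 3, and 5.45, 2.13 and 1.19 FPKM in nitrate 1, 2 and 3. In Usp18 control 1 lay above the bleomycin range, and the nitrate libraries lay below it without overlap. Its differences were 0.49 ± 0.42 (adjusted p = 0.491) and -1.31 ± 0.42 (adjusted p = 0.172) in the same 2 comparisons.

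The IFIT proteins bind viral RNA and block its translation, and their genes lie side by side on chromosome 19. Ifit3 was the highest of the 4, at 48.4, 10.6 and 12.1 FPKM in control 1, 2 and 3, 44.4, 36.1 and 45.1 FPKM in bleomycin 1, 2 and 3, and 32.5, 12.7 and 5.75 FPKM in nitrate 1, 2 and 3. Ifit1 followed, at 19.9, 3.81 and 4.70 FPKM in control 1, 2 and 3, 18.7, 16.8 and 19 FPKM in bleomycin 1, 2 and 3, and 16.1, 4.99 and 2.49 FPKM in nitrate 1, 2 and 3. In both genes control 1 lay above the bleomycin libraries, while control 2 and 3 were far lower. Over the 4 IFIT genes the median ratio of control 1 to the mean of control 2 and 3 was 4.48. For Ifit1 the difference was 1.21 ± 0.66 (adjusted p = 0.280) for bleomycin against control, the largest of the 40 in that comparison, and -1.43 ± 0.66 (adjusted p = 0.300) for nitrate against bleomycin. Ifit3 gave 1.12 ± 0.66 (adjusted p = 0.311) and -1.55 ± 0.66 (adjusted p = 0.268). Ifit2 and Ifit3b gave -1.13 and -1.40 for nitrate against bleomycin, and in Ifit2 alone of the family the groups overlapped there. Every nitrate library was below every bleomycin library for 11.8% of all tested genes. By 50-base words of their GENCODE transcripts, Ifit3 shared 51.2% of its sequence with Ifit3b, so the split of reads between this pair is uncertain.

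The Mx GTPases trap viral ribonucleoproteins and were among the lowest members. Mx1 stood at 6.65, 0.409 and 1.14 FPKM in control 1, 2 and 3, 3.53, 3.32 and 3.66 FPKM in bleomycin 1, 2 and 3, and 3.99, 0.721 and 0.278 FPKM in nitrate 1, 2 and 3. Mx2, which the table lists as a polymorphic pseudogene, stood at 1.16, 0.461 and 0.414 FPKM in control 1, 2 and 3, 1.37, 1.39 and 1.27 FPKM in bleomycin 1, 2 and 3, and 1.51, 0.634 and 0.291 FPKM in nitrate 1, 2 and 3, from 20 to 100 reads a library. In Mx1 control 1 was the highest of the 9 libraries, and in both genes nitrate 1 was above the bleomycin libraries while nitrate 2 and 3 were below them. The differences for nitrate against bleomycin were -1.02 ± 0.66 (adjusted p = 0.456) for Mx1 and -0.43 ± 0.27 (adjusted p = 0.437) for Mx2. For bleomycin against control they were 0.66 ± 0.66 (adjusted p = 0.552) and 0.51 ± 0.27 (adjusted p = 0.259), and in Mx2 those groups did not overlap.

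The oligoadenylate synthetase family, whose active enzymes respond to double-stranded RNA and switch on RNase L, made up 6 members on chromosome 5. Oas1a stood at 17.6, 5.81 and 6.22 FPKM in control 1, 2 and 3, 18.7, 15.3 and 22.1 FPKM in bleomycin 1, 2 and 3, and 13.4, 3.10 and 2.93 FPKM in nitrate 1, 2 and 3. Oasl2 stood at 12.2, 3.61 and 3.65 FPKM in control 1, 2 and 3, 13.3, 11.8 and 12.7 FPKM in bleomycin 1, 2 and 3, and 9.32, 2.59 and 1.40 FPKM in nitrate 1, 2 and 3. In both genes nitrate 2 and 3 were under nitrate 1, and nitrate 1 was in turn under all of bleomycin. Oas1a differed by 1.01 ± 0.55 (adjusted p = 0.277) in bleomycin against control and by -1.67 ± 0.55 (adjusted p = 0.178) in nitrate against bleomycin. Oasl2 differed by 1.05 ± 0.56 (adjusted p = 0.271) and -1.60 ± 0.56 (adjusted p = 0.194). The other members, Oas1g, Oas2, Oas3 and Oasl1, lay between 0.364 and 8.11 FPKM. Their differences ran from 0.54 to 1.03 in bleomycin against control and reached -1.47 in nitrate against bleomycin. Every nitrate library was below every bleomycin library for 5 of the 6, with Oas2 the exception, a pattern held by 11.8% of all tested genes. Oas1a shared 57.6% of its 50-base words with Oas1g, which leaves the split between them uncertain.

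Of 10 other antiviral effectors, 2 were the most abundant members of all. Ifitm3, a membrane protein that hinders viral entry, stood at 424, 190.1 and 179 FPKM in control 1, 2 and 3, 323, 285 and 330.1 FPKM in bleomycin 1, 2 and 3, and 184, 165 and 96.8 FPKM in nitrate 1, 2 and 3. Control 1 was the highest library, and the nitrate libraries were below all of bleomycin. Ifitm3 differed by 0.36 ± 0.36 (adjusted p = 0.554) in bleomycin against control, by -1.12 ± 0.36 (adjusted p = 0.170) in nitrate against bleomycin and by -0.76 ± 0.36 (adjusted p = 0.181) in nitrate against control. Ifi27l2a, which encodes a small hydrophobic protein, stood at 305, 231 and 127 FPKM in control 1, 2 and 3, 174, 162 and 254 FPKM in bleomycin 1, 2 and 3, and 115, 34.9 and 38.9 FPKM in nitrate 1, 2 and 3. Control 2 was high here too, so that the bleomycin libraries lay within the control range, and the 3 nitrate libraries lay below all other 6. Ifi27l2a was the only member with an estimate below 0 in bleomycin against control, -0.11 ± 0.48 (adjusted p = 0.910). It differed by -1.82 ± 0.48 (adjusted p = 0.136) in nitrate against bleomycin, and in nitrate against control it fell by 1.93 ± 0.48 (adjusted p = 0.0464). With single libraries left out the estimate stayed at -2.46 to -1.62, while the adjusted p moved across the threshold. The call was lost without control 1, control 2, bleomycin 1, bleomycin 2, bleomycin 3, nitrate 2 or nitrate 3, with an adjusted p of up to 0.152, and was kept without control 3 or nitrate 1, at 0.0478 and 0.0234.

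Bst2, or tetherin, which holds budding virions at the cell surface, stood at 125, 36.2 and 35.7 FPKM in control 1, 2 and 3, 84.7, 72.4 and 119 FPKM in bleomycin 1, 2 and 3, and 49.4, 27.1 and 23 FPKM in nitrate 1, 2 and 3. Its lowest bleomycin library was above every nitrate library, and it differed by -1.49 ± 0.49 (adjusted p = 0.180) in nitrate against bleomycin. Rtp4, a receptor-transporting protein, stood at 16, 5.19 and 5.29 FPKM in control 1, 2 and 3, 14.8, 16 and 18.1 FPKM in bleomycin 1, 2 and 3, and 9.54, 3.64 and 2.76 FPKM in nitrate 1, 2 and 3. With a difference of -1.60 ± 0.46 (adjusted p = 0.147), Rtp4 also showed no overlap between nitrate and bleomycin. Rsad2, or viperin, and its neighbour on chromosome 12, the nucleotide kinase Cmpk2, overlapped between these groups because nitrate 1 lay within the bleomycin range. Rsad2 differed by -1.20 ± 0.56 (adjusted p = 0.309) and Cmpk2 by -0.95 ± 0.44 (adjusted p = 0.301). Trim30a, Parp14, Xaf1 and Ifi44 lay between 0.540 and 15.2 FPKM, and their differences in nitrate against bleomycin ran from -0.75 to -1.38, without overlap in any of the 4. Every nitrate library was below every bleomycin library for 11.8% of all tested genes.

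Among the transcription factors of the pathway, Irf7 carries the amplification of type I interferon production. It stood at 59.3, 11.7 and 13.8 FPKM in control 1, 2 and 3, 43.1, 30.5 and 51.3 FPKM in bleomycin 1, 2 and 3, and 25.7, 6.59 and 3.67 FPKM in nitrate 1, 2 and 3. Control 1 was the highest of the 9 libraries and nitrate 3 the lowest, at 59.3 against 3.67 FPKM. Irf7 had the most negative estimate of the 40 in nitrate against bleomycin, -2.09 ± 0.73 (adjusted p = 0.194). It differed by 0.89 ± 0.73 (adjusted p = 0.463) in bleomycin against control and by -1.19 ± 0.73 (adjusted p = 0.291) in nitrate against control. Irf9, which gives the ISRE-binding complex its DNA contact, stood at 11.7, 6.05 and 7.31 FPKM in control 1, 2 and 3, 13, 11.1 and 11.5 FPKM in bleomycin 1, 2 and 3, and 10.5, 5.31 and 6.33 FPKM in nitrate 1, 2 and 3. Stat2, its partner, lay between 4.79 and 11.6 FPKM. Both varied much less than Irf7, with differences of -0.67 ± 0.26 (adjusted p = 0.235) for Irf9 and -0.62 ± 0.27 (adjusted p = 0.271) for Stat2 in nitrate against bleomycin. For Stat2 these groups overlapped.

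**Figure D4:**
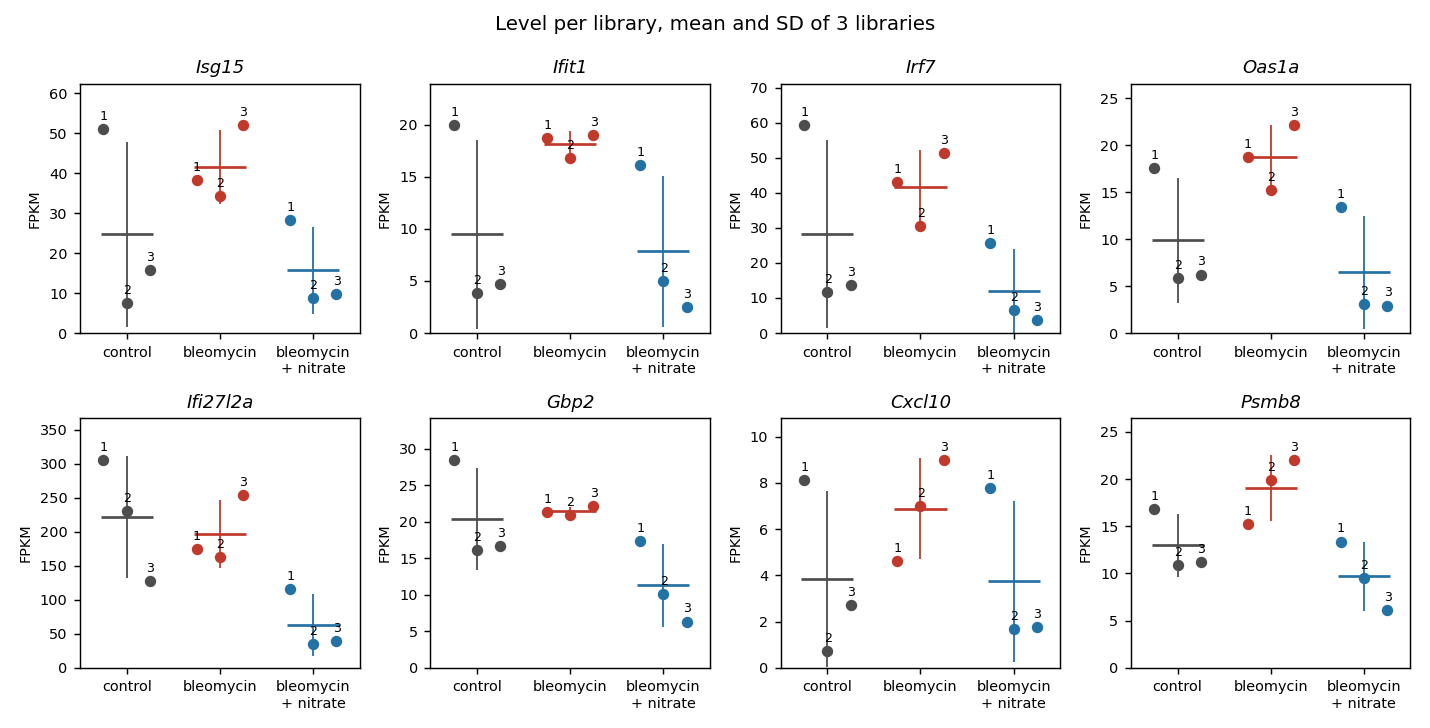
FPKM of 8 members in each library, numbered by library, with a horizontal line at the group mean and a vertical line for the SD (n = 3), and a separate linear axis from 0 for each gene. In each panel control 1 and nitrate 1 are the highest of their groups, as in Irf7 at 59.3 and 25.7 FPKM, and the 3 bleomycin libraries nearly coincide in Gbp2, at 20.9 to 22.1 FPKM.

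The nucleic acid sensors were moderate in level. Zbp1, which binds Z-form nucleic acid and can start necroptosis, stood at 14.3, 2.81 and 4.17 FPKM in control 1, 2 and 3, 9.66, 9.27 and 13 FPKM in bleomycin 1, 2 and 3, and 6.86, 1.47 and 0.998 FPKM in nitrate 1, 2 and 3. Ddx58, the RNA sensor RIG-I, stood at 9.05, 5.53 and 4.68 FPKM in control 1, 2 and 3, 9.26, 7.63 and 7.86 FPKM in bleomycin 1, 2 and 3, and 6.79, 3.70 and 2.75 FPKM in nitrate 1, 2 and 3. Zbp1 spanned a wide range within control and within nitrate, and Ddx58 a narrow one. In both, every nitrate library was below every bleomycin library, with differences of -1.77 ± 0.61 (adjusted p = 0.189) for Zbp1 and -0.84 ± 0.29 (adjusted p = 0.192) for Ddx58. The related helicases Ifih1 and Dhx58 lay between 1.01 and 6.88 FPKM and differed by -0.68 and -1.06 there, also without overlap. That pattern was held by 11.8% of all tested genes. The 4 sensors differed by 0.31 to 0.78 in bleomycin against control, with adjusted p-values of 0.439 to 0.537.

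The GTPases induced by interferon gamma include proteins that attack the vacuoles of intracellular microbes. Gbp2 stood at 28.4, 16.1 and 16.6 FPKM in control 1, 2 and 3, 21.3, 20.9 and 22.1 FPKM in bleomycin 1, 2 and 3, and 17.4, 10.1 and 6.33 FPKM in nitrate 1, 2 and 3. Iigp1 stood at 24.4, 10.6 and 13.5 FPKM in control 1, 2 and 3, 19.6, 19.5 and 19.9 FPKM in bleomycin 1, 2 and 3, and 12.7, 8.66 and 3.12 FPKM in nitrate 1, 2 and 3. The bleomycin libraries of these genes were nearly equal, at 20.9 to 22.1 FPKM for Gbp2 and 19.5 to 19.9 FPKM for Iigp1, and the nitrate libraries were below them. Gbp2 differed by 0.12 ± 0.33 (adjusted p = 0.849) in bleomycin against control and by -0.97 ± 0.33 (adjusted p = 0.184) in nitrate against bleomycin. Iigp1 differed by 0.35 ± 0.43 (adjusted p = 0.639) and -1.34 ± 0.43 (adjusted p = 0.170). In nitrate against control both were below an unadjusted p of 0.05 but did not pass, at -0.86 ± 0.33 (adjusted p = 0.120) for Gbp2 and -0.99 ± 0.43 (adjusted p = 0.156) for Iigp1. Igtp, Gbp3 and Irgm1 lay between 2.10 and 19.4 FPKM and differed by -1.01 to -1.18 in nitrate against bleomycin. Every nitrate library was below every bleomycin library for all 5 GTPases, against the same 11.8% of all tested genes.

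Cxcl9 and Cxcl10 encode the ligands of CXCR3, the receptor through which activated T cells are drawn into tissue. Cxcl10 stood at 8.10, 0.739 and 2.71 FPKM in control 1, 2 and 3, 4.63, 7 and 8.99 FPKM in bleomycin 1, 2 and 3, and 7.77, 1.70 and 1.77 FPKM in nitrate 1, 2 and 3. Cxcl9 stood at 3.17, 1.87 and 1.85 FPKM in control 1, 2 and 3, 3.15, 5.32 and 5.90 FPKM in bleomycin 1, 2 and 3, and 3.45, 1.07 and 1.78 FPKM in nitrate 1, 2 and 3. Nitrate 1 lay within the bleomycin range in both genes, so that nitrate and bleomycin overlapped, and control 1 did the same for control. Cxcl9 differed by 0.80 ± 0.31 (adjusted p = 0.146) in bleomycin against control and by -0.94 ± 0.31 (adjusted p = 0.180) in nitrate against bleomycin. Cxcl10 differed by 0.98 ± 0.64 (adjusted p = 0.360) and -0.93 ± 0.64 (adjusted p = 0.483).

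Psmb8 and Psmb9 encode catalytic subunits that interferon exchanges into the proteasome. Psmb8 stood at 16.9, 10.9 and 11.2 FPKM in control 1, 2 and 3, 15.2, 19.9 and 22 FPKM in bleomycin 1, 2 and 3, and 13.4, 9.54 and 6.11 FPKM in nitrate 1, 2 and 3. Psmb9 stood at 7.78, 5.36 and 4.61 FPKM in control 1, 2 and 3, 6.86, 7.18 and 8.07 FPKM in bleomycin 1, 2 and 3, and 5.30, 5.15 and 3.96 FPKM in nitrate 1, 2 and 3. These were the steadiest pair, with a median ratio of control 1 to the mean of control 2 and 3 of 1.54, against 2.65 over the 40 members. Psmb8 differed by 0.53 ± 0.27 (adjusted p = 0.255) in bleomycin against control and by -0.95 ± 0.27 (adjusted p = 0.144) in nitrate against bleomycin. Psmb9 differed by 0.30 ± 0.18 (adjusted p = 0.317) and -0.53 ± 0.18 (adjusted p = 0.182). In both genes every nitrate library was below every bleomycin library, a pattern held by 11.8% of all tested genes.

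Members with and without the ISRE letters moved alike in direction. In nitrate against bleomycin the median difference was -1.20 for the 19 members with a match and -0.95 for the 11 matched to a window without one. The medians were 0.65 and 0.53 in bleomycin against control. Irf7, with the most negative estimate, had no such match in its window, and its difference of -2.09 lay outside the range of the 19, which ended at -1.67.

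The interferons themselves were barely seen. Of 10 interferon genes looked up, 7 (Ifnb1, Ifna1, Ifna4, Ifna5, Ifne, Ifnl2 and Ifnl3) had 0 reads in all 9 libraries, which by counting error alone allows up to 3 reads a library. Ifna2 had 1 read in all. Ifnk, the keratinocyte interferon, was hit by 3 reads of the control group and 2 of the nitrate group, and by 0 of the bleomycin group. Ifng was absent from the reads of all 3 control libraries. The bleomycin libraries held 3, 4 and 4 reads of it, nitrate 2 held 2, and nitrate 1 and nitrate 3 held 0. None of the 10 reached the level needed for a test, and a lack of reads in bulk skin at this depth does not show that the protein was absent.

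Outside the members, 54 genes of the pathway were looked up and 43 were tested. In bleomycin against control 36 of 43 estimates were above 0, against 51.6% of all tested genes, with a median of 0.32. The test was passed by 2 of the 43, both inhibitors of cytokine signalling and both higher, where 4.74% of all tested genes rose. Socs3 stood at 14.2, 8.76 and 8.18 FPKM in control 1, 2 and 3, 64.6, 34 and 55.9 FPKM in bleomycin 1, 2 and 3, and 14.2, 11.8 and 9 FPKM in nitrate 1, 2 and 3. It rose by 2.19 ± 0.29 (adjusted p = 0.00603) in bleomycin against control, where the groups did not overlap. Socs1 stood at 1.66, 1.78 and 1.54 FPKM in control 1, 2 and 3, 2.49, 3.59 and 3.90 FPKM in bleomycin 1, 2 and 3, and 2.94, 1.88 and 2.57 FPKM in nitrate 1, 2 and 3 and rose by 0.69 ± 0.17 (adjusted p = 0.0432). Socs3 is induced by many cytokines besides interferon. In nitrate against bleomycin 40 of 43 estimates were below 0, against 50.4% of all tested genes, with a median of -0.48. None of the 43 passed there, where 0% of all tested genes passed. In nitrate against control 30 of 43 were below 0, against 48.1% of all tested genes, with a median of -0.13. Of the 43, 1 passed there, which fell, where 4.9% of all tested genes fell.

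Ifngr1, the ligand-binding chain of the interferon gamma receptor, stood at 40.3, 41 and 37.7 FPKM in control 1, 2 and 3, 39.97, 34.2 and 38.7 FPKM in bleomycin 1, 2 and 3, and 25.1, 25.1 and 19.2 FPKM in nitrate 1, 2 and 3. It fell by 0.76 ± 0.13 (adjusted p = 0.0188) in nitrate against control, the only pathway gene called there, and its 3 nitrate libraries were below all other 6.

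Markers of leukocytes differed between the same libraries. The 12 monocyte and macrophage genes were all tested, none was at 0 in any library, and their summed level ran from 469 to 719 FPKM in control, from 1096 to 2032 FPKM in bleomycin and from 341 to 905 FPKM in nitrate. Within control their mean log2(FPKM + 1) was highest in control 1, at 5.21 against 4.53 and 4.31. Within nitrate it was highest in nitrate 1, at 5.18 against 4.07 and 3.40. By gene, nitrate 1 was the highest nitrate library for 12 of 12. Control 1 was the highest control for 8 of 12, most so by ratio in Ly6c2 of inflammatory monocytes, a gene singled out after its values were seen, at 19.4 FPKM against 0.608 and 1.91 in control 2 and 3. Control 2 was the highest control for the other 4, Csf1r, Lyz2, Mrc1 and C1qa, as in Lyz2 at 305 FPKM against 275 in control 1. In bleomycin against control 2 of the 12, Cd14 and Lyz2, rose, against 4.74% of all tested genes. In nitrate against bleomycin 12 of 12 estimates were below 0, against 50.4% of all tested genes. None of the 12 passed there, where 0% of all tested genes passed. The part of these cells in the members' levels was not tested.

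Of 12 T and NK cell genes 5 were tested, and the summed level of the 12 ran from 17.9 to 20.1 FPKM in control, 33.5 to 46.0 FPKM in bleomycin and 25.4 to 27.1 FPKM in nitrate. Cd4 and Trbc2 rose in bleomycin against control, where 4.74% of all tested genes rose. Of the other tested genes Cd3g was at 0.35 there, Nkg7 at -0.40 and Prf1 at -0.45, and these did not pass. Every bleomycin library was below every control library for Nkg7, a pattern held by 17.3% of all tested genes. Trbc2 also rose in nitrate against control, by 0.92 ± 0.14 (adjusted p = 0.0163), where 3.63% of all tested genes rose. The defining gene Cd3e stayed below 1 FPKM in all 9 libraries. Of 8 neutrophil genes 4 were tested, and all 4 rose in bleomycin against control, where 4.74% of all tested genes rose. The summed level of the 8 ran from 9.86 to 30.2 FPKM in control, 445 to 3199 FPKM in bleomycin and 20.4 to 181 FPKM in nitrate, with the defining gene Ly6g at 0 in 7 of the 9 libraries. From 79.6 to 99.4% of that sum was S100a8 and S100a9, which stressed keratinocytes also express. Of 7 genes of plasmacytoid dendritic cells, the main producers of type I interferon, 5 were tested. That list includes the member Bst2, and most of its sum is Bst2 and Ly6d, which keratinocytes also express. The sum ran from 254 to 414 FPKM in control, 601 to 773 FPKM in bleomycin and 454 to 673 FPKM in nitrate. Siglech, which defines these cells, went the other way from control to bleomycin and was not tested. It was at 0.476 to 0.615 FPKM in control, 0.236 to 0.358 FPKM in bleomycin and 0.0807 to 0.209 FPKM in nitrate. In bleomycin against control 3 of the 5 tested estimates were above 0, and 2, Tcf4 at -0.35 and Il3ra at -0.14, were below. Of the 5, 1 rose there, Ly6d, against 4.74% of all tested genes. The part of these cell types in the members' levels was not tested either.

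Genes of the resident skin cells moved with the comparisons to control. The summed level of 6 keratinocyte genes ran from 1802 to 3200 FPKM in control, 5528 to 8832 FPKM in bleomycin and 4510 to 7153 FPKM in nitrate. That of 5 fibroblast genes ran from 3620 to 4543, 1193 to 1828 and 1160 to 1824 FPKM in the same order, and that of 5 endothelial genes from 113 to 132, 73.1 to 88.3 and 47.8 to 84.9 FPKM. All 16 genes were tested and none was at 0 in any library. In bleomycin against control the keratins Krt14 and Krt1 rose, against 4.74% of all tested genes, while the collagen genes Col1a1 and Col1a2 and the endothelial receptor gene Tek fell, against 3.69%. In nitrate against control Dsp of desmosomes rose, against 3.63% of all tested genes. Col1a1, Col1a2, Cdh5, Kdr and Tek fell there, against 4.9% of all tested genes in that direction. None of the 16 passed in nitrate against bleomycin, where 0% of all tested genes passed. The part of these cells in the members' levels was likewise not tested.

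**Figure D5:**
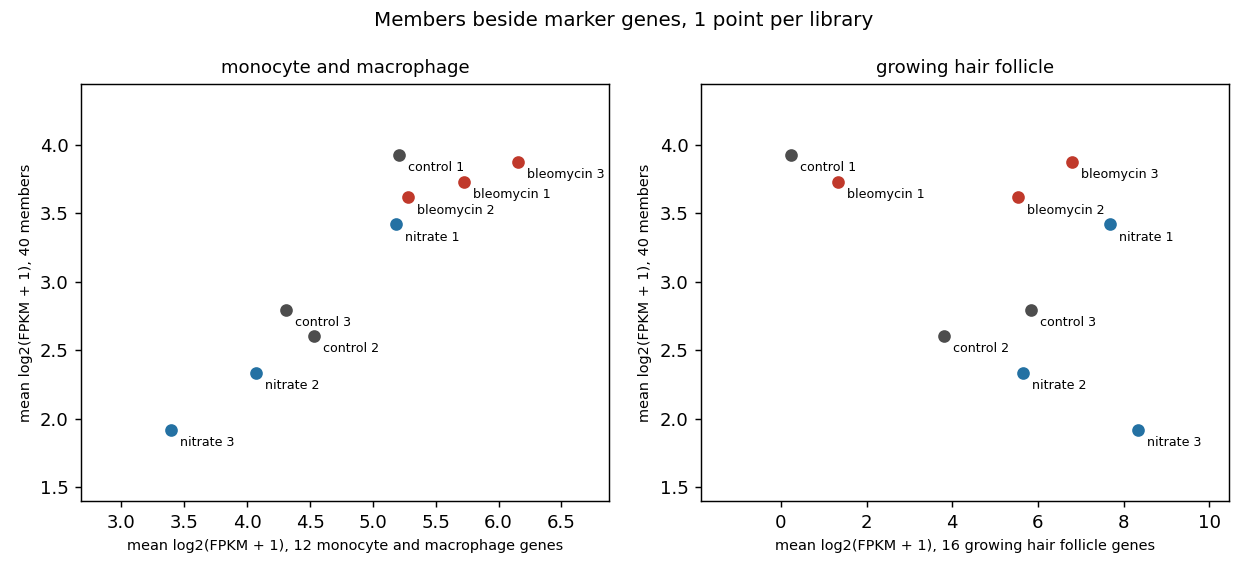
Mean log2(FPKM + 1) of the 40 members in each library against that of 12 monocyte and macrophage genes (left) and 16 genes of the growing hair follicle (right). Control 1, highest in the members at 3.92, lies at 5.21 on the left panel, left of the bleomycin libraries at 5.28 to 6.16. It lies there beside nitrate 1 at 5.18, whose members' mean is 3.42. Bleomycin 3, at 3.87 in the members, is the furthest right on the left panel at 6.16. Control 1 and bleomycin 3 lie far apart on the right panel, at 0.24 and 6.79.

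In bleomycin against control the 16 hair follicle genes all had estimates above 0, against 51.6% of all tested genes, with a median of 1.15. All 16 were also above 0 in nitrate against bleomycin, with a median of 3.08, and in nitrate against control, with a median of 4.41. The shares of all tested genes above 0 there were 49.6% and 51.9%. None of the 16 passed in the 3 comparisons, where 8.43%, 0% and 8.53% of all tested genes passed. The hair follicle genes and the members did not order the libraries alike. Control 1 had the lowest hair follicle mean of the 9 libraries, at 0.24, and the highest mean of the members, at 3.92. Nitrate 3 had the highest hair follicle mean, at 8.34, and the lowest mean of the members, at 1.92. Nitrate 1, with the next highest hair follicle mean at 7.69, had a members' mean of 3.42. Without the control and bleomycin libraries lowest in hair follicle genes, control 1 and bleomycin 1, the median difference of the members was 0.91 in bleomycin against control. It was -1.15 in nitrate against bleomycin and -0.16 in nitrate against control, where bleomycin 1 does not enter the estimate. No member passed in any of the 3, where 0.935%, 0% and 0.157% of all tested genes passed in this fit. The part of hair cycle stage in these differences was not tested.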

How the data were processed

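RNA sequencing libraries of 9 mouse skin biopsies were grouped by their sample titles. Expression was taken from the 1 FPKM table deposited by the authors, with genes in rows and libraries in columns. The genome build was mm10, per the submitters' processing notes, while the aligner and the counter are not given in the sources used here. FPKM times gene length gave whole multiples of 1 step, within 0.01, for 100% of the genes checked. Reads per gene were recovered from that step, and the authors' effective library size divided by the recovered reads was 0.916 to 1.09.

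limma 3.58.1 (R 4.3.3) was run on log2(FPKM + 1) of the 14645 genes that reached 1 FPKM in at least 3 of 9 libraries. The fit had 3 group means with eBayes (trend and robust), and tests were two-sided with Benjamini-Hochberg adjustment. All 40 members passed the filter, at 1 FPKM or more in at least 5 libraries, and 31 did so in all 9. The limma script was checked on simulated data. The members, gene lists and tests were chosen with earlier results of these data known. Values were given per library for called members and for the 2 highest of each class, with further members where groups did not overlap or a neighbour was of interest. Promoters were printed for the highest member of each class with an ISRE match inside the 160 bases before the start. Left out were windows that ran into the gene's own span, from gene start to gene end, in the table. The matches of the transcription factors, sensors and chemokines lay outside those bases. The alternatives changed the pseudocount (0.1 or 0.5), the filter (none, or a mean of at least 5 FPKM), the scaling (quantile or median-of-ratios), the groups in the fit, the block (replicate number), the sample weights or the libraries (each left out in turn). Voom on recovered reads, and leaving out the control and bleomycin libraries lowest in hair follicle genes, were added after seeing the data. Figures were drawn with matplotlib 3.10.9.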

Additional observations from a re-analysis of the deposited data

How the results depend on the processing

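Over 20 alternatives no member passed in bleomycin against control, where the lowest adjusted p was 0.0719 (Bst2 without control 1). None passed in nitrate against bleomycin, where it was 0.0502 (Ifi27l2a without nitrate 1). The share of all tested genes called ran from 0.935 to 13.3% in the first comparison and from 0 to 0.253% in the second. A fit without control 1 and nitrate 1 together was also run and is not among the 20. Those libraries were picked by the members' own values, so its calls were set aside. In nitrate against bleomycin 40 of 40 members kept the sign of their estimate under the alternatives run for them, which were all 20 for 27 members and 19 for the 13 that the filter at a mean of 5 FPKM left out, and the median ran from -1.58 to -0.80. In bleomycin against control 38 of 40 kept it likewise, with a median of 0.39 to 0.92, and in nitrate against control 27 of 40, with a median of -0.97 to -0.16. Voom scales by library total, which moved the median of all genes by 0.12 in bleomycin against control and 0.16 in nitrate against control.

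The count of 1 called member in nitrate against control was 0 with no filter, with only the groups compared, with sample weights and without both libraries lowest in hair follicle genes, where the adjusted p of Ifi27l2a was 0.105, 0.0897, 0.0684 and 0.166, and 0 to 1 with single libraries left out. In the same order 0.913%, 2.09%, 14.2% and 0.157% of all tested genes were called, and 0.307 to 19.7% with single libraries left out. The cause of the change in the count was not tested. With the replicate number as a block the count was also 0 (Ifi27l2a at 0.0508), and it was 0 in both other comparisons. The block called 7.29% of all tested genes in nitrate against control and 7.09% in bleomycin against control. The numbers share no stated source: deviations of same-numbered libraries correlated at -0.39 to 0.52, 5 of 9 over 0.1, and 5 of 9 libraries correlated best with their own number. Over all genes the block called 10 in nitrate against bleomycin, against 0 without it. With 1 library left out that count was 37 without nitrate 1, 13 without bleomycin 2 and 4 without bleomycin 1 or 3.

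In nitrate against control, no estimate that changed sign passed, and some were as large as the main ones or larger: Cxcl10 was 0.053, and -0.53 without control 2 or -0.51 without nitrate 1. Quantile normalization gave -0.0078 for Mx2. Sample weights gave 0.28 for Ifit1, 0.046 for Ifit2, 0.055 for Ifit3, 0.036 for Ifit3b, 0.11 for Mx1, 0.017 for Oas1g, 0.036 for Irf9 and 0.092 for Cxcl9. Without both libraries lowest in hair follicle genes they were 0.30 for Isg15, 0.44 for Ifit1, 0.24 for Ifit3, 0.39 for Ifit3b, 0.36 for Mx1, 0.064 for Oas3, 0.081 for Irf9, 0.15 for Xaf1 and 0.042 for Cxcl9. These repeat the estimates without control 1 alone, since bleomycin 1 does not enter this comparison. With single libraries left out the ranges were -1.01 to 0.30 for Isg15, -0.86 to 0.44 for Ifit1, -0.98 to 0.094 for Ifit2, -1.02 to 0.24 for Ifit3, -0.82 to 0.39 for Ifit3b, -0.94 to 0.36 for Mx1, -0.18 to 0.30 for Mx2, -0.96 to 0.064 for Oas3, -0.41 to 0.081 for Irf9, -0.60 to 0.15 for Xaf1, -0.44 to 0.12 for Cxcl9 and -0.53 to 0.67 for Cxcl10. In bleomycin against control Ifi27l2a was 0.0099 with voom, 0.24 without both libraries lowest in hair follicle genes and -0.46 to 0.17 with single libraries left out, and Gbp2 was -0.020 to 0.37. With 3 libraries a group and the spread seen in control and nitrate, a gene that missed the threshold may still have differed.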
